A study of Mus musculus with 8 samples.

Results

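Expression of 9 genes of thyroid hormone handling and response was followed in the upper neocortical layers of newborn mice in which the transcription factor gene Bcl11a was deleted in the Emx1 lineage. The 9 genes, out of 19938 genes measured, are Slco1c1, Dio2, Dio3, Crym, Thra, Thrb, Hr, Klf9 and Trhde. They were chosen by their roles as transporters, deiodinases, hormone-binding proteins, receptors, responsive genes and the enzyme that breaks down thyrotropin-releasing hormone (TRH), and also by the log2 differences between mutant and control that these same arrays had shown. Those differences are therefore given as a description, with no test. Each gene is read from 1 probe set, matched by exact symbol, and no gene was dropped for low values.

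The 4 mutant pups were Bcl11a flox/flox;Emx1 IRESCre/+ and the 4 control pups were Bcl11a flox/+;Emx1 IRESCre/+, all at postnatal day 2. Both genotypes carry Cre recombinase from the Emx1 locus, which is active in the lineage of cortical excitatory neurons and much of the cortical glia, so the controls have lost 1 Bcl11a allele where Cre acts. Neocortical layers II-IV were cut out with a laser and each pup gave 1 Affymetrix array. Bcl11a read 8.63 ± 0.21 in mutant and 10.45 ± 0.13 in control tissue (log2 expression, SD, n = 4 each), and the position of its probe set relative to the deletion is not known here. Control 1 stood apart on principal component 2, at 16.59, with the other controls between -10.88 and -4.84.

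Thyroid hormone reaches the brain mostly as thyroxine, which is carried across the blood-brain barrier and into glia by transporters. Deiodinases, which are selenoproteins, then either convert it to the active triiodothyronine or destroy both hormones. Triiodothyronine binds nuclear receptors that sit on DNA, usually with a retinoid X receptor, and that exchange corepressors for coactivators when hormone binds. In the developing cortex this pathway is known for its part in neuronal migration, maturation and myelination.

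Trhde and Klf9 were well below control in every mutant pup, and Dio2 was lower by a smaller step. Slco1c1 and Hr were slightly lower and Crym slightly higher. The receptor genes Thra and Thrb each differed from control by 0.05 on the log2 scale, and Dio3 was at background in all 8 arrays. In the fit across all genes 3 of the 9 had an adjusted p under 0.05, all 3 lower in the mutant, beside 4.15% of all genes (2.36% higher and 1.79% lower). The count was 2 of the 9 without mutant 1, without mutant 2, without variance moderation or at a threshold of 0.01. In 6 of the 9 genes no mutant value fell inside the range of the controls, beside 9.25% of all genes. Nothing is read from these counts, because this contrast chose the genes. Without control 1 the log2 differences of Trhde, Klf9 and Dio2 were -1.62, -1.16 and -0.50, against -1.81, -1.22 and -0.50 with it. The median absolute log2 difference was 0.18 over the 9 genes and 0.07 over all genes. The tissue was measured in bulk, so fewer cells that express a gene and less of its RNA per cell cannot be told apart.

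**Figure D1:**
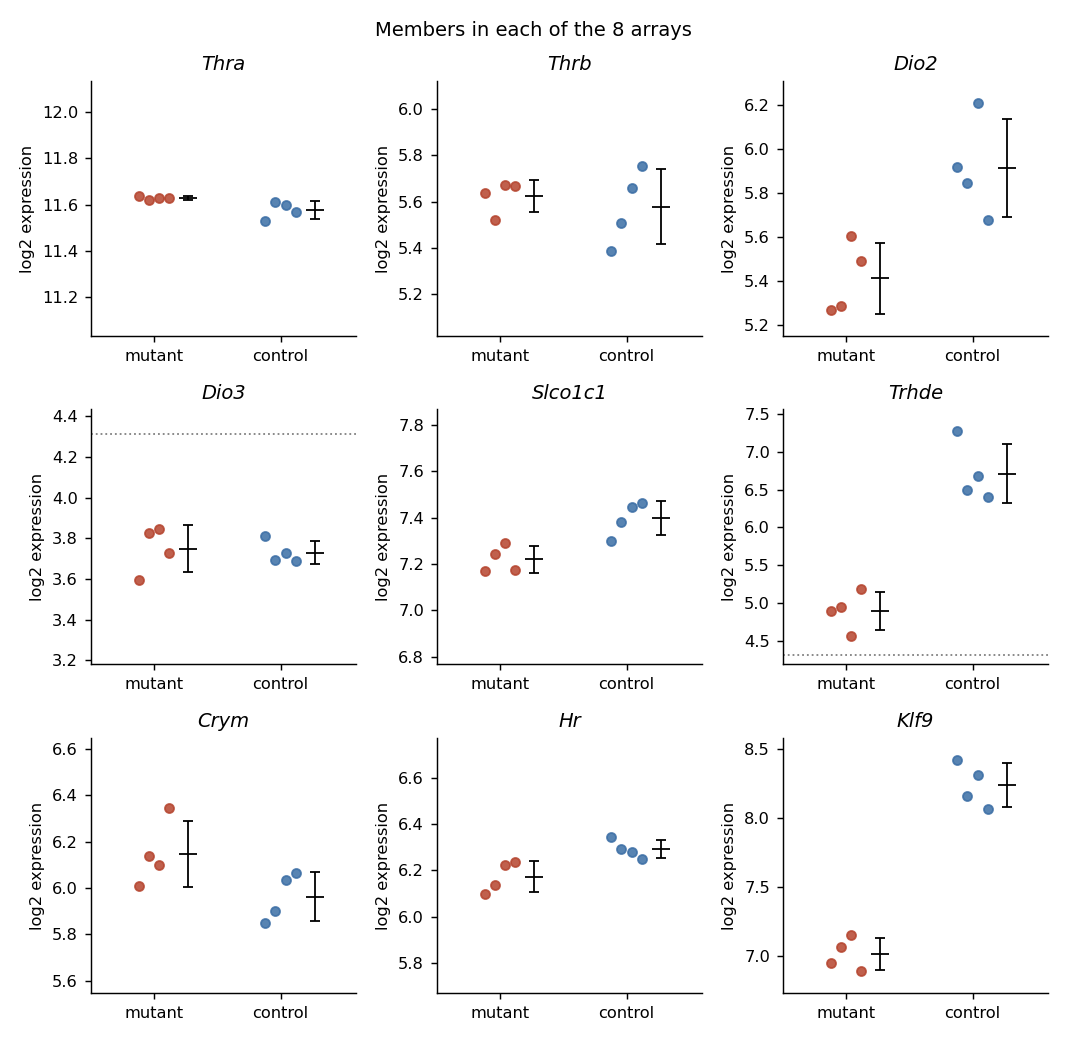
Log2 expression of each of the 9 genes in the 4 mutant (left, red) and 4 control (right, blue) arrays, with the mean and SD of each group in black. The dotted line marks the background floor of 4.31, drawn where it falls near the values. The groups do not overlap for Trhde, Klf9, Dio2, Slco1c1, Hr and Thra, with narrow gaps for Dio2, Slco1c1, Hr and Thra. All 8 Dio3 values lie below the floor.

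**Figure D2:**
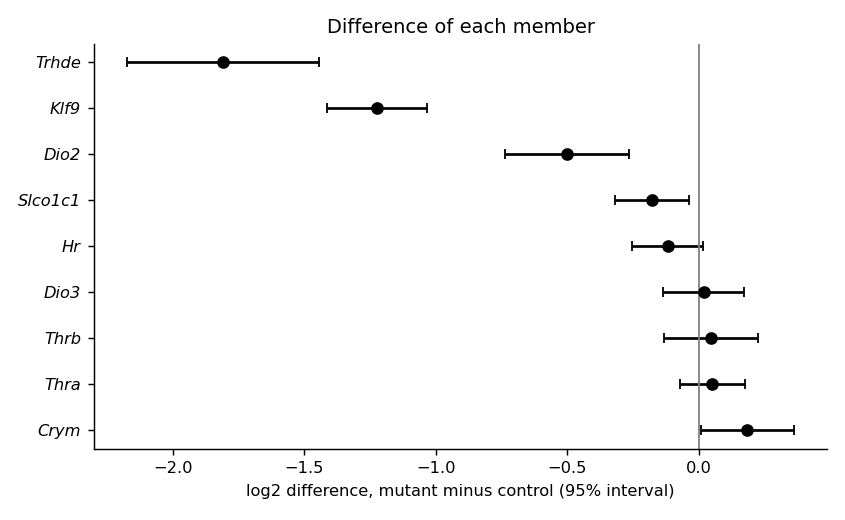
Log2 difference, mutant minus control, of each of the 9 genes with its 95% interval from the limma fit (n = 4 each). The differences run from -1.81 for Trhde to 0.18 for Crym.

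The upstream sequences of the 3 genes with the largest differences are shown because these genes were lower together. Each is the 250 bases before the annotated start in RefSeq, build GRCm38.p6, written 5′ to 3′ on the strand of the gene, with motif matches in capitals. The windows are chr10:114802303-114802552 (minus strand) for Trhde, chr19:23140976-23141225 (plus strand) for Klf9 and chr12:90739039-90739288 (minus strand) for Dio2.
Trhde: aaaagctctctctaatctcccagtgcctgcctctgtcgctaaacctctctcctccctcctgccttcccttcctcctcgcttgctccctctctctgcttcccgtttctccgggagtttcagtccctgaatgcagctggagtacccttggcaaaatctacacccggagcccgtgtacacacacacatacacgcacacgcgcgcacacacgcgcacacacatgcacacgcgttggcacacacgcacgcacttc
Klf9: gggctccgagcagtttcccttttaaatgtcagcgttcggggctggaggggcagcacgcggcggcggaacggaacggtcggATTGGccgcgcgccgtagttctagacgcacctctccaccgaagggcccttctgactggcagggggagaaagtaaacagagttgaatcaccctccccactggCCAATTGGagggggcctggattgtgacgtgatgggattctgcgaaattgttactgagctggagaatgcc
Dio2: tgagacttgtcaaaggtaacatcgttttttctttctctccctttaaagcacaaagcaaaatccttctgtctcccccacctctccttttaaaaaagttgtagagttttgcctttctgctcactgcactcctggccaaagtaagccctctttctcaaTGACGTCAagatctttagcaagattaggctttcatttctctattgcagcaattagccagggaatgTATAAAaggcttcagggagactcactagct

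The motifs searched on both strands were the thyroid hormone response half-site AGGTCA, its direct repeat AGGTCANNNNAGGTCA, the Bcl11a motif TGACCA, the cAMP response element TGACGTCA, the E-box CACGTG, the CCAAT box CCAAT, the GC box GGGCGG and the TATA box TATAAA. Of these, the half-site is contained in its direct repeat. The Dio2 window held TGACGTCA from 95 to 88 bases before the start and TATAAA from 30 to 25 bases before it. The Klf9 window held 3 CCAAT boxes, of which the 2 nearest the start overlap. The Trhde window, with a run of alternating C and A bases near the start, held no match. Of all 32851 promoter windows, 1.55% held TGACGTCA, 12.4% TATAAA and 33.8% CCAAT. Windows were found for 6 of the 9 genes (7 windows, as Thrb has 2). Among them AGGTCA occurred only in 1 Thrb window, 184 to 179 bases before the start, against 14% of all windows. TGACCA occurred in none of the 7, against 11.4% of all windows, the direct repeat in none, against 0.0152%, and these letters in a window this short are no evidence about binding.

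Slco1c1 encodes the thyroxine transporter of brain endothelium and astrocytes. It read 7.17, 7.24, 7.29 and 7.17 in the mutants, against 7.30, 7.38, 7.44 and 7.46 in the controls (log2 expression, pups 1 to 4). The groups did not overlap, but the highest mutant and the lowest control, control 1, lay close together. Mutant minus control was -0.18 on the log2 scale (SE 0.06), a level 1.13-fold lower with a 95% interval of 1.03 to 1.25. The 4 mutant values had an SD of 0.06.

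Of 13 other measured genes of hormone transport and metabolism, 1 fell, 0 rose and 12 did not pass. The one that fell was Slc7a8, a light chain of the heterodimeric amino acid transporters that also carry thyroid hormone. It averaged 7.10 ± 0.07 in mutant and 7.47 ± 0.06 in control tissue (SD, n = 4 each), a difference of -0.37 (SE 0.06, limma adjusted p = 0.00462), and the groups did not overlap. Its sister light chain Slc7a5 (-0.02) and their heavy chain Slc3a2 (0.01) did not pass, with adjusted p of 0.959 and 0.972 by limma. The median log2 difference of the 13 genes was 0.01, and that of all genes 0.02. The means of 7 of the 13 lay at or below the floor of 4.31, among them Slco1a4, an organic anion transporter of the blood-brain barrier, and Dio1, the deiodinase of liver and kidney. The largest differences among those that did not pass were those of Ttr, Sult1a1, a sulfotransferase, and Slco1a4, all with means at or below the floor. Ttr, the thyroxine carrier made by the choroid plexus, read 5.51 in mutant 4 and 3.47 to 3.86 in the other mutants, against 3.51 to 3.75 in the controls. The mean over 6 choroid plexus markers was 4.21 in mutant 4 and at most 3.97 in any other array. This mean is no separate reading, because Ttr is 1 of the 6 and raises it. Of the 6, 5 averaged at or below the floor. Folr1 was also highest in mutant 4 (4.81), whereas Kl, Clic6, Kcne2 and Kcnj13 were not.

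Because Slco1c1 and Dio2 are expressed in endothelium and astrocytes, markers of those cells were read in the same arrays. Of 10 astrocyte markers 0 passed by limma (2 at an unadjusted p under 0.05). Of these markers 7 had differences below 0, beside 42.5% of all genes, and their median was -0.11. Their mean level ran from 6.59 to 6.79 in the mutants, against 6.63 to 6.87 in the controls, and their summed linear signal from 1366 to 1603 in the mutants, against 1433 to 1708 in the controls. Both ranges overlap. Of 10 endothelial markers 0 passed (2 at an unadjusted p under 0.05), with a median of -0.07 and a summed signal of 1101 to 1206 in the mutants, against 1147 to 1232 in the controls. All of these 20 markers averaged above the floor. Of 6 pericyte markers, 1 fell, Abcc9, a potassium channel regulator (-0.32, adjusted p = 0.0331 by limma), and all 6 had differences below 0, with a median of -0.11. The pericyte mean ran from 5.80 to 5.86 in the mutants, against 5.95 to 6.05 in the controls, with no overlap. The part of these cells in the Slco1c1 and Dio2 values was not tested.

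**Figure D3:**
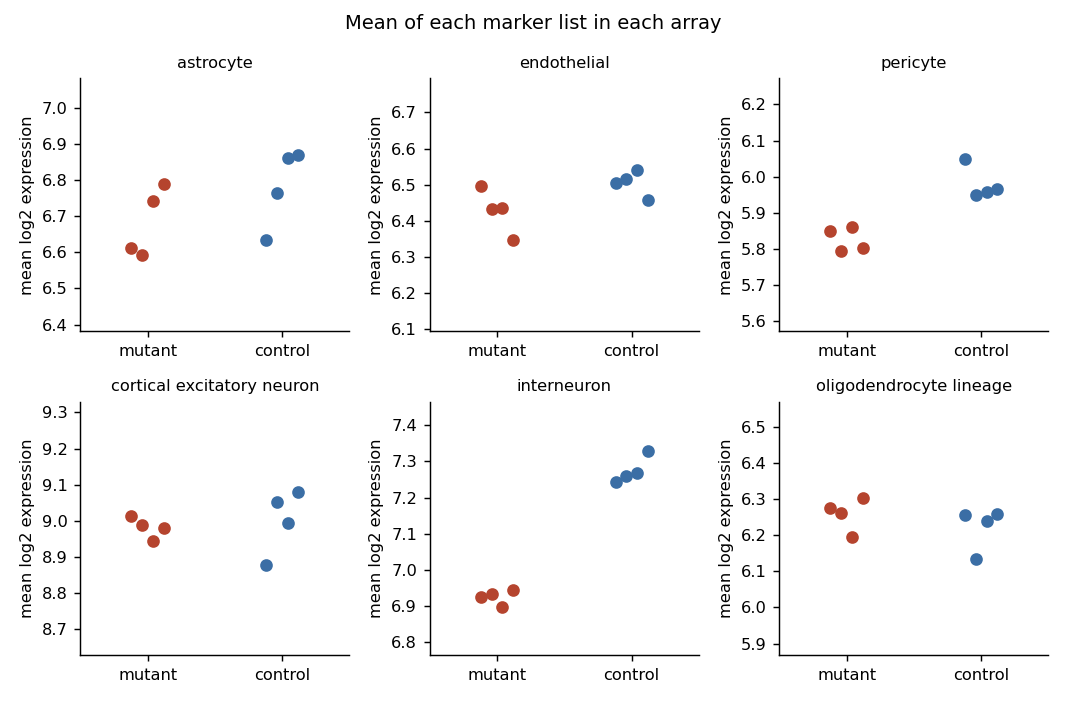
Mean log2 expression of 6 lists of cell type markers in each mutant (left, red) and control (right, blue) array, each axis spanning the same 0.7 log2 units. The groups overlap for astrocyte, endothelial, excitatory neuron and oligodendrocyte markers, and do not overlap for pericyte and interneuron markers.

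Dio2 is the deiodinase that makes triiodothyronine, chiefly in astrocytes. It read 5.27, 5.29, 5.60 and 5.49 in the mutants, against 5.92, 5.85, 6.21 and 5.68 in the controls (log2 expression, pups 1 to 4). Every mutant lay below every control, although mutant 3 and control 4 came close to each other. The log2 difference was -0.50 (SE 0.11), a level 1.41-fold lower with a 95% interval of 1.2 to 1.67. This difference was -0.45 without mutant 1 and -0.46 without mutant 2, the 2 lowest mutants. Without control 3, the highest control, it was -0.40. Its spread among pups of 1 genotype was wide, with a within-group SD of 0.19 at percentile 93.2 of all genes.

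Dio3, the deiodinase that inactivates both hormones, read between 3.59 and 3.85 in the mutants, against 3.69 and 3.81 in the controls. All 8 values lay under the floor of 4.31, so no fold is given. Deiodinases contain selenocysteine, and of 10 measured genes of selenoprotein synthesis and selenium supply 0 passed the limma test, and 2 had an unadjusted p under 0.05. Their differences had a median of -0.05. The largest were those of Sephs1 (0.18) and Sephs2 (-0.17), paralogs of selenophosphate synthetase of which Sephs2 makes the selenium donor. Both had mutant values outside the control range, as 9.25% of all genes did, with adjusted p of 0.200 and 0.221. Next was Trnau1ap, a protein associated with the selenocysteine tRNA (0.13, adjusted p = 0.503).

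Crym encodes mu-crystallin, which binds triiodothyronine in the cytoplasm. It read 6.01, 6.14, 6.10 and 6.34 in the mutants, against 5.85, 5.90, 6.03 and 6.07 in the controls (log2 expression, pups 1 to 4). Mutant 4 was the highest, and mutant 1 lay inside the control range. Mutant minus control was 0.18 on the log2 scale (SE 0.08), a level 1.14-fold higher with a 95% interval of 1.00 to 1.29.

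Thra encodes the main thyroid hormone receptor of the developing brain. It read 11.64, 11.62, 11.63 and 11.63 in the mutants, against 11.53, 11.61, 11.60 and 11.57 in the controls. All 4 mutants lay above the highest control by a small margin. The log2 difference was 0.05 (SE 0.06), and its 95% interval runs from 1.05-fold lower to 1.13-fold higher. Thra was also among the least variable genes on the arrays, with a within-group SD of 0.03 at percentile 0.24 of all genes. In the gene table of GRCm38.p6 its end overlaps that of Nr1d1, a transcriptional repressor of the circadian clock that lies on the opposite strand. Nr1d1, read from another probe set, averaged 6.83 ± 0.14 in mutant and 8.25 ± 0.21 in control tissue (SD, n = 4 each).

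Thrb, the receptor gene whose product increases as the brain matures, read 5.64, 5.52, 5.67 and 5.67 in the mutants, against 5.39, 5.51, 5.66 and 5.75 in the controls. The 4 mutants all fell inside the control range. The log2 difference of 0.05 (SE 0.08) had a 95% interval from -0.13 to 0.22, and it was -0.02 without control 1, the lowest control.

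Of 15 measured receptor partners and cofactors, 0 passed by limma (3 at an unadjusted p under 0.05). Differences below 0 were seen in 11 of them, beside 42.5% of all genes, and their median was -0.09. The mean over the 15 genes was 7.39 to 7.54 in the mutants, against 7.55 to 7.59 in the controls. The groups did not overlap, but mutant 1 (7.54) and control 2 (7.55) lay close together. Mutant 4 was the lowest at 7.39, with the other mutants at 7.52 to 7.54. The largest differences were those of Ncoa2, a steroid receptor coactivator (-0.30, adjusted p = 0.0732 by limma), Itgav, an integrin subunit that binds thyroid hormone at the cell surface (-0.26, adjusted p = 0.150), and Tbl1x, a subunit of the corepressor complex (-0.18, adjusted p = 0.275). Ncoa2 passed in 4 of 18 alternative settings, among them without control 1 (-0.37, adjusted p = 0.0133). The retinoid X receptor genes Rxra (0.10) and Rxrb (0.04) did not pass, and Rxrg lay at or below the floor.

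Hr encodes a corepressor that is itself induced by thyroid hormone in rodent brain. It read 6.10, 6.14, 6.22 and 6.24 in the mutants, against 6.34, 6.29, 6.28 and 6.25 in the controls (log2 expression, pups 1 to 4). The groups did not overlap, but the gap between mutant 4 and control 4 was narrow. On the log2 scale the difference was -0.12 (SE 0.06), with a 95% interval from -0.25 to 0.02. Like Thra it varied little among pups, with a within-group SD of 0.05 at percentile 6.13.

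Klf9 encodes a Kruppel-like zinc finger factor induced by thyroid hormone, and also by glucocorticoids, in rodent neurons. It read 6.95, 7.06, 7.16 and 6.89 in the mutants, against 8.42, 8.16, 8.32 and 8.06 in the controls. The gap between the highest mutant and the lowest control was far wider than the spread inside either group. The log2 difference was -1.22 (SE 0.09), a level 2.33-fold lower with a 95% interval of 2.05 to 2.66.

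Among 14 other Kruppel-like factor genes Klf3 alone rose, 0 fell and 13 were without a call, with a median log2 difference of -0.02. Klf3, a repressor of the family, averaged 7.45 ± 0.21 in mutant and 6.56 ± 0.08 in control tissue (SD, n = 4 each), a rise of 0.89 (SE 0.10, adjusted p = 1.06e-04 by limma), opposite in sign to Klf9. Klf13, the member most like Klf9 in sequence, had a log2 difference of -0.01 (adjusted p = 0.975). Among those that did not pass, the largest differences were those of Klf6 (-0.30, adjusted p = 0.0697), Klf11 (-0.14, adjusted p = 0.394) and Klf4 (0.14, adjusted p = 0.610). Klf6 passed in 5 of 18 alternative settings, among them without mutant 1 (adjusted p = 0.0264).

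Of 16 other genes described as responsive to thyroid hormone in rodent brain, 1 rose, 2 fell and 13 did not pass, and the median log2 difference was -0.03. Shh, a secreted morphogen, rose, with 6.20 ± 0.14 in mutant and 5.61 ± 0.14 in control tissue (log2 difference 0.58, SE 0.09, adjusted p = 0.00137 by limma). Dbp, a transcription factor of the circadian output, fell, with 6.57 ± 0.11 in mutant and 7.21 ± 0.32 in control tissue (SD, n = 4 each, log2 difference -0.64, adjusted p = 0.0112). Reln, the glycoprotein that guides migrating neurons, fell by 0.57 on the log2 scale (adjusted p = 0.0279). Its groups overlapped, since control 1 read 7.84 and mutant 1 read 7.88. It lost its call when mutant 2 or 3 or control 2, 3 or 4 was left out (adjusted p from 0.0702 to 0.101). Reln is also a marker of Cajal-Retzius cells, whose 6 markers had a median difference of 0.01, with Reln alone passing and 2 at an unadjusted p under 0.05. The other of the 2 was Calb2, a calcium-binding protein gene also used as an interneuron marker. Its difference was above 0 (0.86, adjusted p = 0.122 by limma), and its groups did not overlap. Control 1 weighed in this difference, at 5.38 against 6.72 to 7.06 in the other controls and 7.23 to 7.61 in the mutants. The mean of the 6 Cajal-Retzius markers was 5.57 to 5.75 in the mutants, against 5.38 to 5.67 in the controls. Group means of Trp73, Lhx1, Lhx5 and Ebf3 were only 4.33 to 4.99, not far above the floor of 4.31. The list can therefore show little about these cells. The part of Cajal-Retzius cells or of interneurons in the Reln value was not tested.

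Well-known neuronal and glial targets of the hormone were among those that did not pass. Nrgn, which encodes the postsynaptic protein neurogranin, had a log2 difference of 0.15 (adjusted p = 0.711), and the myelin genes Mbp (-0.05) and Mag (0.19) had adjusted p of 0.866 and 0.416. Camk4, a calcium-dependent kinase, had the largest difference that did not pass (-0.38, adjusted p = 0.324), with control 1 at 7.08 and the other controls at 7.63 to 8.01. It passed in 2 of 18 alternative settings, one of them without control 1 (-0.57, adjusted p = 0.0139). The axon guidance gene Sema3e (-0.26) and the neurofilament gene Nefl (0.24) followed, with adjusted p of 0.457 and 0.454. Of 7 oligodendrocyte lineage markers, Cnp rose (0.55, adjusted p = 0.00620) and 6 did not pass, with a mean of 6.19 to 6.30 in the mutants, against 6.13 to 6.26 in the controls.

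**Figure D4:**
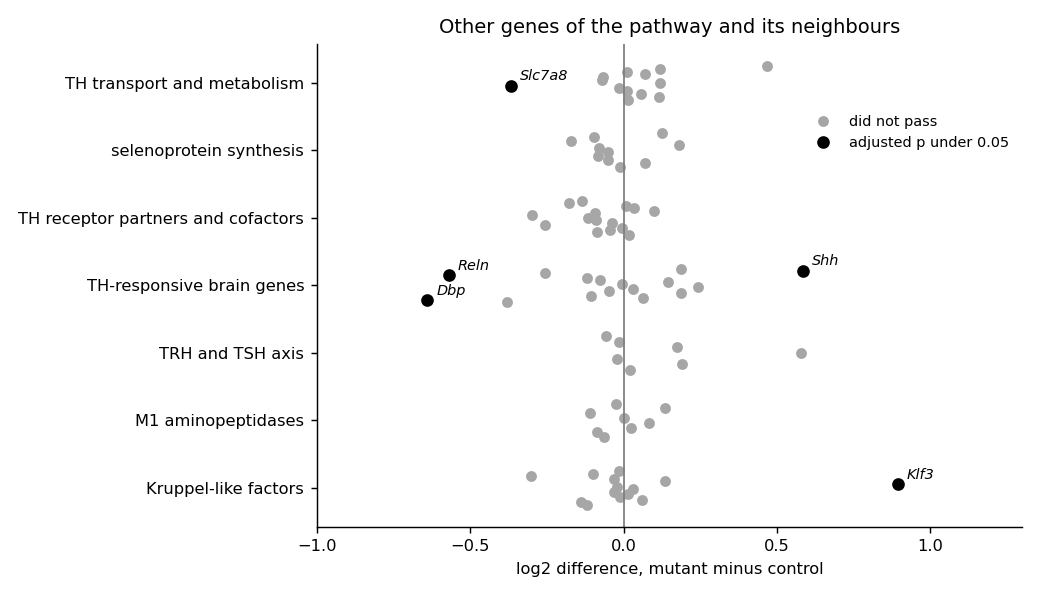
Log2 difference, mutant minus control, of 83 other genes in 7 lists around thyroid hormone (TH), 1 point a gene. The 5 genes with an adjusted p under 0.05 are black and named; the grey points did not pass.

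Trhde encodes a membrane peptidase on the cell surface that inactivates TRH outside the cell. It read 4.9, 4.95, 4.57 and 5.19 in the mutants, against 7.27, 6.49, 6.69 and 6.40 in the controls (log2 expression, pups 1 to 4). No mutant came within 1 log2 unit of a control, and control 1 was the highest. The log2 difference was -1.81 (SE 0.17), a level 3.5-fold lower with a 95% interval of 2.72 to 4.51, and -1.62 without control 1. Among all genes its absolute difference stood at percentile 99.9. Its within-group SD of 0.33 stood at percentile 99.4, so pups of 1 genotype varied more in Trhde than in nearly every other gene. All 4 mutant values remained above the floor of 4.31.

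TRH signalling was also read through the peptide, its receptors and related peptidases. Of 7 genes of the TRH and TSH axis, 0 passed the limma test (2 at an unadjusted p under 0.05), and 4 of the 7 averaged at or below the floor, among them Trh itself and its receptor gene Trhr. Trhr read 4.97 in mutant 1 and 3.51 to 3.79 in the other mutants, against 3.33 to 3.49 in the controls. Pgpep1, a cytosolic peptidase that can also cleave TRH, had a log2 difference of 0.19 (adjusted p = 0.248), and Trhr2, the gene of a second TRH receptor, one of 0.17 (adjusted p = 0.405). Of 8 other aminopeptidase genes of the family of Trhde, 0 passed, also at an unadjusted p under 0.05, and their median was -0.01. Those with the largest differences were Rnpep (0.13), Npepps (-0.11) and Enpep (-0.09, at or below the floor), with adjusted p of 0.532, 0.484 and 0.615.

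Over all 7 lists, 83 of 90 listed symbols were measured, and 2 rose, 3 fell and 78 did not pass. The share that passed, 6.02%, stood beside 4.15% of all genes, and their median log2 difference of -0.02 beside 0.02 for all genes. The other 7 symbols were not analysed here, and among them Sepp1 is an older symbol of Selenop, which is among the 83.

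The genes with profiles most like Trhde and Klf9 were found by the root mean square distance over the 8 arrays between log2 values centred on each gene's own mean. Nearest to Trhde was Bcl11a, at 0.22 log2 units, followed by Atp10b, a phospholipid transporter (0.25), the repressor gene Bcl6 (0.26), Nr1d1 (0.29) and the channel gene Trpa1 (0.31). The median distance of all genes from Trhde was 0.96. Nearest to Klf9 were Cacna2d3, a calcium channel subunit (0.09), the upper-layer homeobox gene Cux2 (0.11), the cadherin gene Cdh6 (0.12), Brinp1 (0.13) and the adhesion gene Mdga1 (0.14), against a median of 0.64. The difference between genotypes enters this distance, so the neighbours are genes that were lower by a like amount. Control 1 was highest in Trhde and in each of its neighbours. Among the mutants their order differed. Mutant 3 was lowest in Trhde and Bcl11a, mutant 4 in Atp10b and Bcl6, and mutant 2 in Nr1d1 and Trpa1. The mutant mean of Trpa1, 4.02, lay below the floor of 4.31, so nothing is read from its order there.

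**Figure D5:**
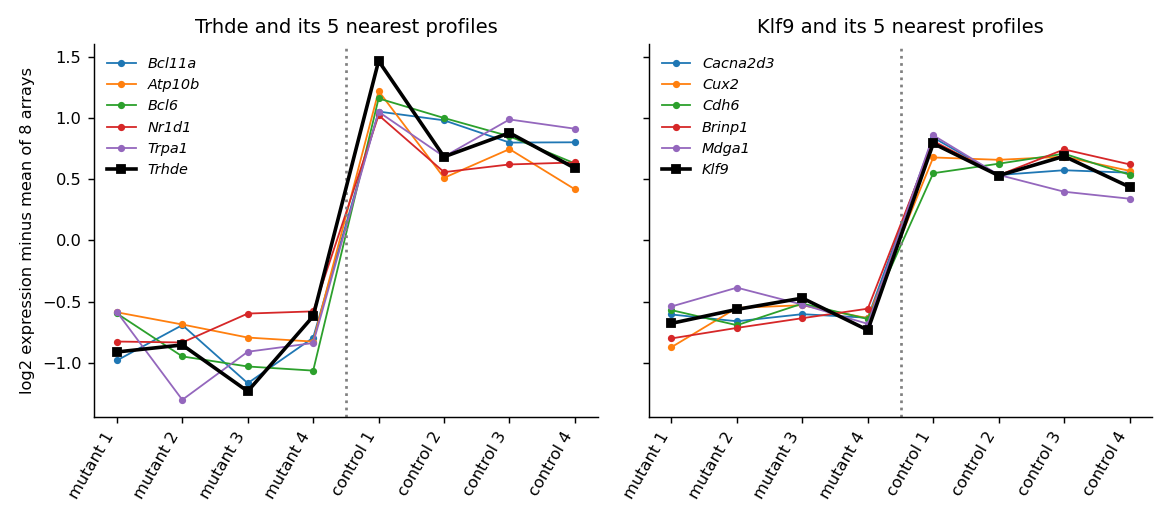
Log2 expression minus the mean of the 8 arrays for Trhde and Klf9 (black) and the 5 genes nearest to each (colours), in the 4 mutant arrays (left of the dotted line) and the 4 control arrays (right). Every line lies below 0 in the mutants and above 0 in the controls.

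The dissected tissue carried the markers of its label. Of 8 markers of cortical excitatory neurons 6 were measured, all above the floor. Neurod6, a neuronal differentiation factor, rose (0.70), and the homeobox gene Emx1 (-0.49) and the glutamate transporter gene Slc17a6 (-0.51) fell, with adjusted p of 5.02e-04, 0.0233 and 0.00160 by limma. The list mean overlapped between the groups. The summed linear signal of the list did not, at 5058 to 5644 in the mutants, against 4323 to 4666 in the controls. Neurod6, the brightest gene of the list, weighs most in this sum. Of 10 interneuron markers, Npy (-1.63) and Dlx1 (-0.46) fell (adjusted p = 9.39e-04 and 0.0019 by limma). Differences below 0 were seen in 9 of them, beside 42.5% of all genes. In 7 the unadjusted p by limma was under 0.05, and the median difference of the 10 was -0.21. The list mean was 6.90 to 6.95 in the mutants, against 7.24 to 7.33 in the controls. The part of interneurons in the Trhde, Klf9, Dio2 and Reln values was not tested. Of 8 microglial markers 5 lay at or below the floor, and of 7 meningeal markers 2. None of these 15 passed by limma, and 1 of each list had an unadjusted p under 0.05.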

How the data were processed

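RNA of 8 pups was hybridised to GeneChip Mouse Gene 1.0 ST arrays. Per the labels, the authors used BRB-ArrayTools, and the deposited values were taken as log2 expression normalized between arrays; they run from 2.03 to 13.8 with array medians of 4.83 to 4.91. Background correction, normalization, summarisation and the log base: not given in the sources used here.

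Of 35556 probe sets, 21789 had 1 gene symbol in the platform annotation, 1621 several and 12146 none here. Probe sets with 1 symbol were kept, and the brightest of a gene was used. Mutant was compared with control on genotype alone with limma 3.58.1 in R 4.3.3, a two-sided moderated test with Benjamini-Hochberg adjustment over 19938 genes and a threshold of 0.05. The median SE was 0.08, and the number of arrays limits the precision. No share of all genes at an unadjusted p under 0.05 is given here, so nothing is read from the counts at that cut. A background floor of 4.31 was set by the highest value of 3 Y-linked genes among pups with high Xist (1 mutant, 2 control); the means of 31.55% of genes lay at or below it. No label says whether pups shared a litter.

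The members and lists were chosen with earlier results of these data known. By rule the text names the members, Bcl11a, genes of each pathway list that passed and the 3 largest others, marker genes that passed, and the 5 profiles nearest to the 2 members with the largest differences. Slc7a5, Slc3a2, Dio1, Rxra, Rxrb, Rxrg, Nrgn, Mbp, Mag, Klf13, Trh and Calb2 were named after their values had been seen. So were the markers Folr1, Kl, Clic6, Kcne2, Kcnj13, Trp73, Lhx1, Lhx5 and Ebf3, which did not pass. On simulated data for the 19938 genes the test found 58 of 67 genes shifted by 0.5 (log2), 67 of 67 shifted by 1 and 66 of 66 shifted by 2. Of the genes it called there, 4.02% were false calls. The simulated noise was normal and independent between genes, with no shared array effects and no sex. These rates therefore need not hold for the real arrays. The 18 alternatives covered normalization, filters, probe sets, variances, array weights, inferred sex, replicate number, threshold and each array in turn.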

Additional observations from a re-analysis of the deposited data

Results flagged for a closer look

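In 72 groups of 4 arrays (36 named genes), 2 held an array far from the other 3 by Dixon's test, and chance alone gives about 5% of groups. Both were control 1: Rnpep, an aminopeptidase gene, read 6.86 there and 7.11 to 7.13 in the other controls, and Klf11 read 7.71 there and 7.53 to 7.56 in the other controls.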

How the results depend on the processing

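Across the 18 alternatives the log2 difference ran from -1.91 to -1.62 for Trhde, -1.28 to -1.16 for Klf9 and -0.58 to -0.40 for Dio2, given as a description. The sign of Slco1c1, Hr, Crym and Thra was the same in all 18, and that of Thrb in 17. Without variance moderation 123 of all genes rose and 126 fell, and at the threshold of 0.01, 243 rose and 204 fell, against 470 and 357; the cause of the first was not tested. Of the other pathway genes, 3 fell. This count was 1 without variance moderation, when 1 rose, 1 at the threshold of 0.01, 5 without the dimmest 50% of genes, 5 with array weights, and 2 to 5 when each array was left out in turn (5 without control 1). With replicate number as a block it was 6, with Ncoa2 (adjusted p = 0.0273), Camk4 (0.0265) and Klf6 (0.0267) added, and 565 of all genes rose and 422 fell. Deviations from the group means of same-numbered pups correlated by 0.06 to 0.30, not above 0.1 for every number, so the numbers were not taken as pairs. The mutants of 3 of the 4 numbers correlated best with their own number. Dio3 is among 6290 genes whose mean lay at or below the floor, where a difference cannot be measured.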
